A study of Homo sapiens with 6 samples.

Results

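Actin filaments, the tropomyosins that lie along them and the myosin that pulls on them were read at the level of mRNA in 12Z cells after frankincense extract. The 10 genes were taken from 60616 gene IDs by name, by a rule that uses no measured value, though with earlier results of these data known: ACTB, ACTG1 and ACTA2 (actins), TPM1 and TPM2 (tropomyosins), MYL9 (a myosin light chain), and TAGLN, CNN1, LMOD1 and SYNPO2 (actin-binding proteins of smooth muscle). 12Z is an immortalised human endometriotic cell line, given as wild type. Frankincense cells (n = 3 libraries) received frankincense extract at 70 ug/mL in DMSO for 12 hours, and vehicle cells (n = 3) received DMSO, the solvent, alone. All cells were grown in medium with charcoal-stripped serum, in which steroid hormones are depleted. The series asks which genes differ after the extract. The sources do not say whether the 3 libraries of a group came from separate cultures, and every p-value given here measures the spread between these libraries, which may be technical. These are bulk libraries of 1 cell line, so fewer cells of a kind and less RNA per cell cannot be told apart.

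Beta and gamma actin, the products of ACTB and ACTG1, form the filaments of nearly every cell, whereas smooth muscle actin (ACTA2) is made by smooth muscle cells and myofibroblasts and is used as a marker of both. Many genes of actin, myosin and their partners are switched on by serum response factor (SRF), which binds a short A- and T-rich sequence called the CArG box. SRF works with myocardin-related coactivators (MRTFA, MRTFB), which free actin monomers hold out of the nucleus, and in smooth muscle with myocardin (MYOCD). Smooth muscle actin and other contractile proteins are known from the fibromuscular tissue around endometriotic lesions.

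The libraries held 23443295 to 25169710 expected counts in frankincense cells and 22615150 to 27615196 in vehicle cells, so 3 counts corresponded to 0.109 to 0.133 CPM, the count after scaling each library to a fixed total. Frankincense replicate 3 stood apart: its counts differed from those of frankincense replicates 1 and 2 by a chi-square per degree of freedom of 12.9 and 11.2, against 3.93 between those 2 libraries and 3.65 to 4.18 between the vehicle libraries. Messenger RNAs encoded by the mitochondrial genome took 4.67% to 5.43% of counts in frankincense cells and 13.1% to 13.8% in vehicle cells. This share enters the TPM of every other gene, since TPM, the deposited level per transcript length, sums to a fixed total in each library. Fold changes and p-values below therefore come from the counts with edgeR's trimmed-mean scaling (TMM), and levels are in TPM. On the count scale the median log2 fold change of the 16719 genes tested was -0.0016, and on the scale of log2(TPM + 1) it was 0.20.

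On the counts, all 10 genes were lower in frankincense cells at an adjusted p under 0.05 (edgeR's quasi-likelihood test, Benjamini-Hochberg adjustment over 16719 genes), and 0 were higher. Over all genes tested 31.0% were called lower and 31.9% higher (62.9% in either direction), so a call in itself was common in this series. The median log2 fold change (frankincense over vehicle) of the 10 was -0.75. In 7 of them it lay between -0.88 (TAGLN) and -0.70 (MYL9), SYNPO2 stood far below these at -2.60, and ACTA2 and TPM1 stood above at -0.25 and -0.18 on the counts, with the sign turned on the TPM scale. A fall at least as large as that of ACTB with a call was found in 9.21% of all genes tested, and at least as large as that of SYNPO2 in 0.478%. Scaled CPM of the 3 frankincense libraries lay below all 3 vehicle libraries for each of the 10 genes, a pattern shown by 33.5% of all genes tested, while 34.0% showed the reverse. On the scale of log2(TPM + 1) with limma, 7 of the 10 were called lower and 0 higher, beside 14.8% of all genes lower and 43.8% higher (58.6% in either direction). In TPM as deposited the groups did not overlap in 7 of the 10, all lower, beside 17.1% of all genes lower and 48.1% higher without overlap. With all genes of the mitochondrial genome taken out before TPM was rescaled, 9 were called lower. Of all genes tested, 22.4% were then called lower and 30.6% higher (53.0% in either direction). Without frankincense replicate 3 the fit of the counts called 9 of the 10 lower.

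**Figure D1:**
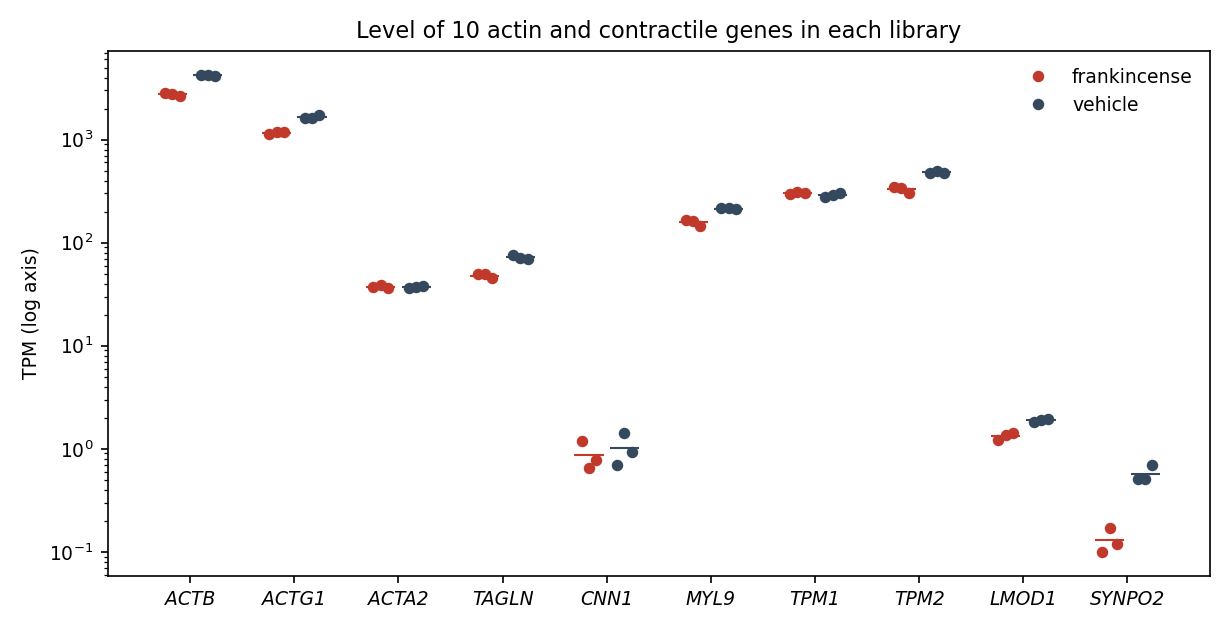
TPM of each of the 10 genes in each library (points) with the group mean (bar), frankincense left of vehicle, all on a shared log axis. ACTB stands at 2643 to 2805 TPM in frankincense cells and at 4178 to 4273 TPM in vehicle cells, and the points of ACTA2, TPM1 and CNN1 overlap between the groups.

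The cytoplasmic actins carried most of this mRNA. ACTB (ENSG00000075624, GRCh38 chr7:5527147-5563784, minus strand) had 2805, 2785 and 2643 TPM in frankincense libraries 1 to 3 and 4273, 4200 and 4178 TPM in vehicle libraries 1 to 3. All 3 frankincense libraries were lower than the lowest vehicle library, with frankincense replicate 3 the lowest of the 6. The means were 2744 ± 88.4 TPM in frankincense cells and 4217 ± 49.5 TPM in vehicle cells (SD, n = 3 each), and the counts gave a log2 fold change of -0.86 ± 0.069 (SE), a 1.82-fold lower level, with an adjusted p of 6.4e-08 in edgeR's quasi-likelihood test. By mean TPM, ACTB ranked 28 among all genes in frankincense cells and 22 in vehicle cells. ACTB is often used to normalise quantitative PCR and protein blots.

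ACTG1 (ENSG00000184009, chr17:81509971-81523847, minus strand) had 1127, 1181 and 1177 TPM in frankincense libraries and 1616, 1608 and 1719 TPM in vehicle libraries. The groups did not overlap and each stayed within a narrow band. Means were 1162 ± 30.1 TPM in frankincense cells and 1648 ± 61.9 TPM in vehicle cells (SD, n = 3 each), with a log2 fold change of -0.74 ± 0.060 (SE; adjusted p = 7.4e-08, same test). Its rank by mean TPM was 97 in frankincense cells and 58 in vehicle cells.

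These transcripts are much alike, which bears on how reads are assigned to them. The start of the coding sequence is shown for the 3 actins to let the difference be seen. Each stretch begins at the start codon, and capitals in ACTG1 and ACTA2 mark bases unlike those of ACTB after alignment (GENCODE 29, GRCh38: ACTB at chr7:5529598-5529657, ACTG1 at chr17:81512295-81512354 and ACTA2 at chr10:88948865-88948930, all on the minus strand).
ACTB: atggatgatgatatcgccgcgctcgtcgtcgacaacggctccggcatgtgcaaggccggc
ACTG1: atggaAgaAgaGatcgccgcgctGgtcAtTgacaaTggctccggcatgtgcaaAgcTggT
ACTA2: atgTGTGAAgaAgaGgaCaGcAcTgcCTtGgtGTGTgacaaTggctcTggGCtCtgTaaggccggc
ACTG1 differed from ACTB at 10 of these 60 bases, and ACTA2 at 25 of its 66. Over the whole coding sequence ACTB and ACTG1 matched at 91.3% of 1125 bases, and their longest identical run was 59 bases. ACTA2 matched ACTB at 81.8%, with a longest identical run of 32 bases. Actins also have many processed pseudogenes, and RSEM divides reads that match several places by an estimate. The expected counts of ACTB and ACTG1 were whole numbers (within 0.005) in 5 of the 6 libraries, and those of ACTA2 in 0 of 6. TAGLN, TPM1 and LMOD1 also had 0 of 6, and these 4 genes are those that share exon bases with a gene on the other strand. What made their counts fractional was not tested.

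ACTA2 (ENSG00000107796, chr10:88935074-88991339, minus strand) was far less abundant. It had 37.05, 38.63 and 36.31 TPM in frankincense libraries and 36.66, 36.91 and 37.95 TPM in vehicle libraries. The TPM values of the groups overlapped entirely, with means of 37.3 ± 1.19 TPM in frankincense cells and 37.2 ± 0.68 TPM in vehicle cells (SD, n = 3 each). On the counts it was 1.19-fold lower (log2 fold change -0.25 ± 0.070, adjusted p = 0.0069, edgeR), whereas on the TPM scale the sign turned, at 0.0056 with an adjusted p of 0.94 in limma. Set against the median of all genes on the TPM scale, it lay at -0.19. Exons of ACTA2 share 380 of their 2976 bases with FAS and 516 with ACTA2-AS1, both on the other strand. Whether reads were counted by strand is not given in the sources used here, so reads of these genes cannot be told apart there. FAS, a death receptor, was not called (0.14 ± 0.078, adjusted p = 0.13, edgeR).

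Within a library, the share of each actin in the summed TPM of the 3 does not depend on how libraries are scaled. ACTA2 made up 0.934%, 0.965% and 0.941% of actin TPM in frankincense libraries and 0.619%, 0.631% and 0.639% in vehicle libraries. The share was higher in each frankincense library than in any vehicle library, by 0.317 percentage points between the means, with an exact two-sided permutation p of 0.1, the smallest that 3 against 3 can give. ACTB made up 69.6% ± 1.07 in frankincense cells and 71.5% ± 0.93 in vehicle cells, and these groups overlapped (exact permutation p = 0.2). ACTG1 made up 29.5% ± 1.07 in frankincense cells and 27.9% ± 0.92 in vehicle cells, also with overlap (exact permutation p = 0.2). The summed TPM of the 3 actins was 3943 ± 77.3 in frankincense cells and 5902 ± 49.1 in vehicle cells (SD, n = 3 each).

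**Figure D2:**
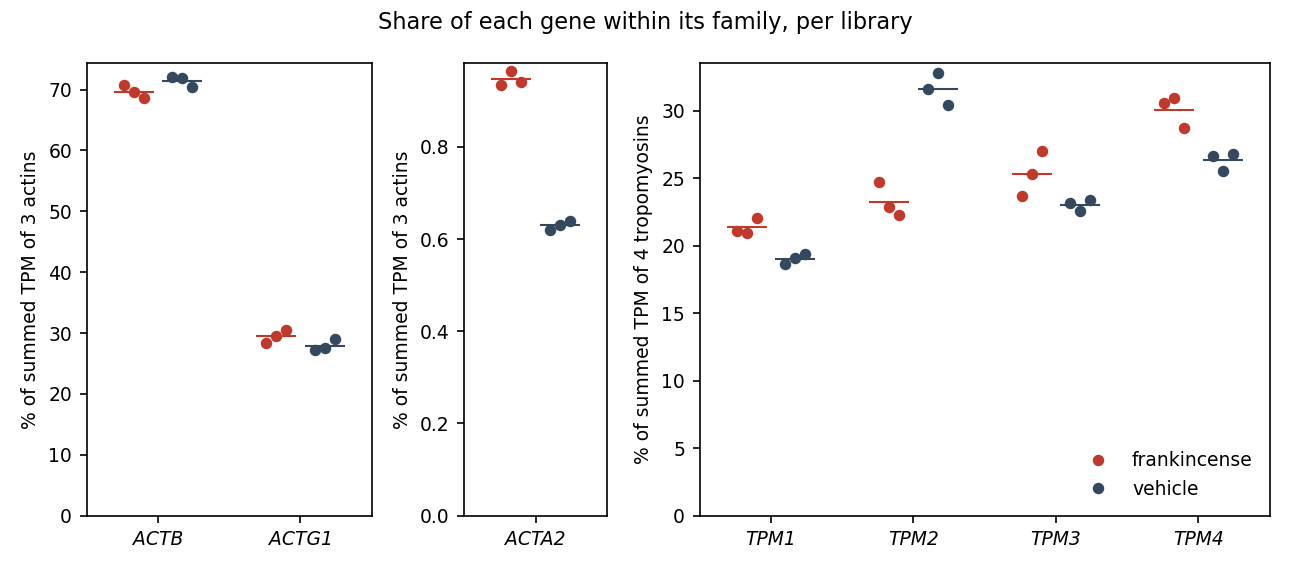
Share of each gene in the summed TPM of its family, in percent, for the 3 actins and the 4 tropomyosins in each library (points), frankincense left of vehicle, with the group mean (bar). TPM2 sits at 22.3% to 24.7% of tropomyosin TPM in frankincense cells and at 30.4% to 32.8% in vehicle cells.

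Tropomyosins wind along the actin filament and gate its contact with myosin. TPM2 (ENSG00000198467, chr9:35681992-35690121, minus strand), which encodes beta tropomyosin, had 347, 336 and 304 TPM in frankincense libraries and 474, 501 and 473 TPM in vehicle libraries. It was lower in every frankincense library, and lowest in frankincense replicate 3. Means were 329 ± 22.4 TPM in frankincense cells and 483 ± 15.7 TPM in vehicle cells (SD, n = 3 each); edgeR put the log2 fold change at -0.80 ± 0.081 (adjusted p = 2.1e-06). TPM1 (ENSG00000140416, chr15:63042632-63071915, plus strand), which encodes alpha tropomyosin, had 296, 307 and 301 TPM in frankincense libraries and 280, 291 and 301 TPM in vehicle libraries. Its TPM groups overlapped, with means of 301.5 ± 5.23 TPM in frankincense cells and 291 ± 10.8 TPM in vehicle cells (SD, n = 3 each). Its log2 fold change was -0.18 ± 0.059 on the counts (adjusted p = 0.013, edgeR) and 0.052 on the TPM scale, where the sign turned (adjusted p = 0.39, limma). The call on the counts was lost when libraries were scaled by their size alone (-0.11, adjusted p = 0.107) and without vehicle replicate 2 (-0.17, adjusted p = 0.0597). Exons of TPM1 share 2070 of their 12876 bases with TPM1-AS and 691 with AC079328.2, both on the other strand.

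The mix of tropomyosins differed between the groups, least clearly for TPM3. TPM2 made up 24.7%, 22.9% and 22.3% of the summed TPM of TPM1 to TPM4 in frankincense libraries and 31.6%, 32.8% and 30.4% in vehicle libraries. TPM1 made up 21.3% ± 0.63 in frankincense cells and 19.0% ± 0.38 in vehicle cells (SD, n = 3 each). TPM3, a widely expressed tropomyosin, made up 25.3% ± 1.66 in frankincense cells and 23.0% ± 0.41 in vehicle cells, and TPM4 made up 30.1% ± 1.21 in frankincense cells and 26.3% ± 0.71 in vehicle cells. None of the 4 shares overlapped between the groups, and each had an exact two-sided permutation p of 0.1, the smallest possible. The difference was -8.34 percentage points for TPM2, and the other 3 shares were higher by 2.28 (TPM3) to 3.76 points (TPM4). For TPM3 the difference was smaller than the spread of its frankincense libraries (23.7% to 27.0%), and its highest vehicle library stood at 23.4%. The difference of TPM3 was 1.44 points without frankincense replicate 3, and 0.745 points when shares were taken from expected counts. Since shares sum to a fixed total, these 4 differences are not independent of each other. Summed tropomyosin TPM was 1413 ± 51.0 in frankincense cells and 1527 ± 26.5 in vehicle cells.

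MYL9 (ENSG00000101335, chr20:36541484-36551447, plus strand) encodes a regulatory light chain whose phosphorylation turns on smooth muscle and nonmuscle myosin II. It had 167.72, 160.77 and 146.17 TPM in frankincense libraries and 215.92, 217.10 and 210.03 TPM in vehicle libraries. The groups did not overlap, and frankincense replicate 3 was again the lowest of the 6. Means were 158 ± 11.0 TPM in frankincense cells and 214 ± 3.79 TPM in vehicle cells (SD, n = 3 each), a 1.62-fold lower level on the counts (log2 fold change -0.70 ± 0.069, adjusted p = 7.9e-07, edgeR).

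Of the actin-binding proteins, TAGLN (transgelin, ENSG00000149591, chr11:117199321-117204782, plus strand), which bundles actin filaments, was the most abundant. It had 49.4, 49.5 and 45.0 TPM in frankincense libraries and 75.8, 71.6 and 70.0 TPM in vehicle libraries. The groups stood well apart, with means of 48.0 ± 2.54 TPM in frankincense cells and 72.4 ± 3.01 TPM in vehicle cells (SD, n = 3 each) and a log2 fold change of -0.88 ± 0.064 (adjusted p = 2.2e-08, edgeR). Exons of TAGLN share 446 of their 3917 bases with PCSK7 on the other strand. PCSK7, a proprotein convertase, was higher in frankincense cells (log2 fold change 0.37 ± 0.071, adjusted p = 0.00036).

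SYNPO2 (synaptopodin 2 or myopodin, ENSG00000172403, chr4:118850688-119061247, plus strand), an actin-bundling protein of striated and smooth muscle, had the largest fold of the 10 genes at a low level. It had 0.10, 0.17 and 0.12 TPM in frankincense libraries, from 11, 18 and 14 expected counts, and 0.51, 0.51 and 0.70 TPM in vehicle libraries, from 72, 91 and 102 expected counts. Every frankincense library was well below every vehicle library. On the counts SYNPO2 was 6.05-fold lower, a log2 fold change of -2.60 ± 0.23 (adjusted p = 1.8e-07, edgeR). On the scale of log2(TPM + 1) the difference was -0.48, since the added 1 is larger than either level. LMOD1 (leiomodin 1, ENSG00000163431, chr1:201896452-201946588, minus strand), which nucleates actin filaments in smooth muscle, was also low. It had 1.21, 1.35 and 1.43 TPM in frankincense libraries and 1.81, 1.92 and 1.96 TPM in vehicle libraries. These did not overlap, and LMOD1 was lower by a log2 fold change of -0.76 ± 0.12 (adjusted p = 8.6e-05, edgeR). On the scale of log2(TPM + 1) it was -0.31. Exons of LMOD1 share 536 of their 3971 bases with AL513217.1 on the other strand.

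CNN1 (calponin 1, ENSG00000130176, chr19:11538717-11550323, plus strand), which binds actin and damps myosin's activity in smooth muscle, was measured least firmly. It had 15, 15 and 12 expected counts in frankincense libraries and 17, 27 and 26 in vehicle libraries. In TPM the groups overlapped, at 1.20, 0.65 and 0.77 in frankincense libraries and 0.69, 1.43 and 0.92 in vehicle libraries. On the counts CNN1 was lower by a log2 fold change of -0.71 ± 0.29 (adjusted p = 0.042, edgeR), and on the scale of log2(TPM + 1) the difference was -0.10 with an adjusted p of 0.62. The call on the counts was lost in DESeq2 (adjusted p = 0.229) and when any 1 of the 6 libraries other than vehicle replicate 1 was left out (adjusted p 0.0685 to 0.135 in edgeR). The expected counts give CNN1 no more than 27 in any library, so its difference was barely detectable at this depth.

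**Figure D3:**
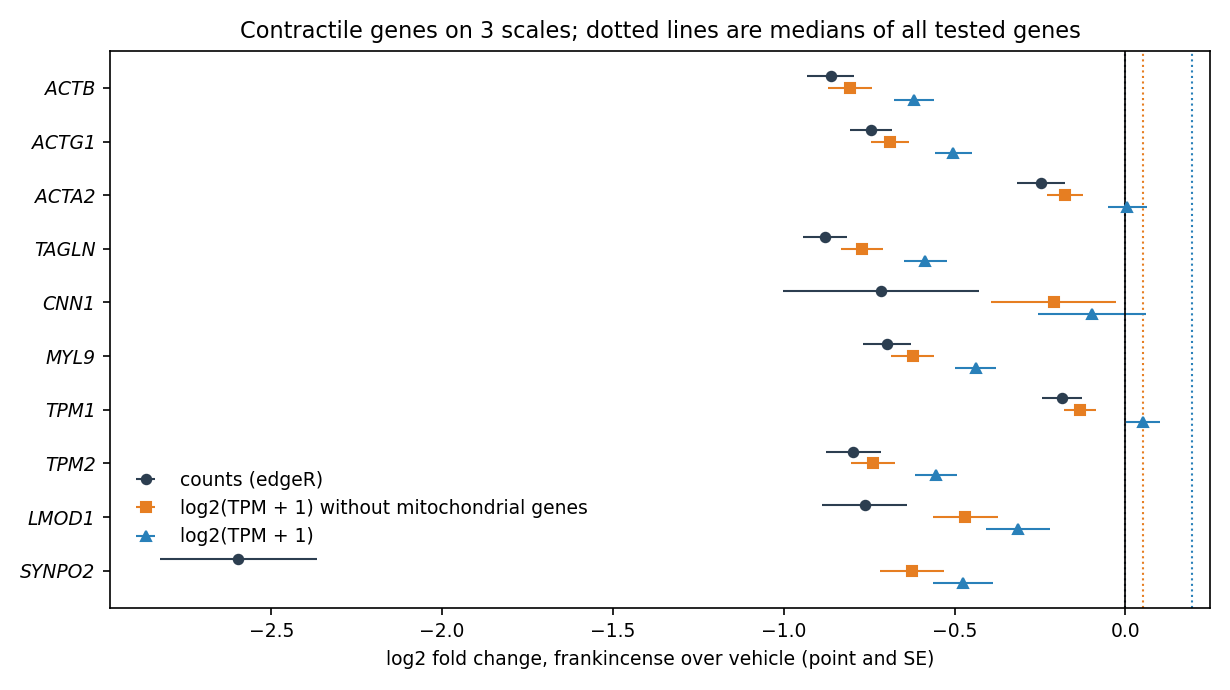
Log2 fold change (frankincense over vehicle) of the 10 genes on the count scale, on log2(TPM + 1), and on log2(TPM + 1) without mitochondrial genes. Error bars are 1 SE, and dotted lines mark the median of all genes tested on each scale. All 10 lie below 0 on the count scale, and ACTA2 and TPM1 lie above 0 on log2(TPM + 1), at 0.0056 and 0.052.

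Frankincense replicate 3 lay below the mean of frankincense replicates 1 and 2 in 8 of the 10 genes, by 0.31 on the log2 CPM scale in the most distant (TPM2), and close to it in LMOD1 and SYNPO2. Without that library the log2 fold changes were -0.79 for ACTB, -0.70 for ACTG1, -0.17 for ACTA2 and -0.82 for TAGLN. They were -0.60 for MYL9, -0.13 for TPM1, -0.69 for TPM2, -0.76 for LMOD1, -2.58 for SYNPO2 and -0.61 for CNN1. Of these only CNN1 then missed the threshold (adjusted p = 0.135, edgeR).

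The mean transcript length that RSEM weights by abundance moves when a gene's transcripts change in proportion. For all 10 genes the lengths of the groups overlapped or were fixed, and the exact two-sided permutation p lay between 0.2 and 0.9 for those that varied. SYNPO2 differed most, at 6119, 6124 and 7076 bases in frankincense libraries and 7867, 7946 and 7050 bases in vehicle libraries. Its lengths rest on the few counts above.

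Whether the cells look like smooth muscle was read from markers that define that type. MYH11, the smooth muscle myosin heavy chain, had 9, 6 and 8 expected counts in frankincense libraries and 17, 18 and 22 in vehicle libraries. DES (desmin) had 9, 12 and 6 in frankincense libraries and 22, 22 and 23 in vehicle libraries. Both were low in these cells, and both were called lower on the counts (log2 fold changes -1.29 ± 0.34, adjusted p = 0.0039, and -1.29 ± 0.33, adjusted p = 0.0036, in edgeR). On log2(TPM + 1) neither was called (adjusted p = 0.134 and 0.056, limma), and in DESeq2 MYH11 missed the threshold (adjusted p = 0.0522). ACTG2, smooth muscle gamma actin, had 3, 4 and 4 counts in frankincense libraries and 8, 12 and 12 in vehicle libraries and did not pass the filter on low counts; without a filter it was lower (log2 fold change -1.48, adjusted p = 0.0317, edgeR), and in DESeq2 it was not called (adjusted p = 0.109). MYOCD had 1 count over all 6 libraries, PLN had 2, and KCNMB1 and CASQ2 had 0. Only SMTN (smoothelin) was well detected among the 8 defining markers, and it too was lower (-0.51 ± 0.062).

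Other actins of muscle were sparse. Of the 9 listed, 5 had 0 counts in all libraries, and ACTC1, the cardiac actin, was the only one tested. It had 2.63, 2.72 and 2.76 TPM in frankincense libraries and 6.97, 7.05 and 6.83 TPM in vehicle libraries. The groups did not overlap (log2 fold change -1.71 ± 0.13, adjusted p = 5.1e-08, edgeR).

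Among 45 other genes of smooth muscle and its actin cytoskeleton, 36 were tested, of which 9 were higher, 20 were lower and 7 were not called, with a median log2 fold change of -0.30. Over all genes tested, the counts called 31.9% higher and 31.0% lower. On the scale of log2(TPM + 1) the split was 12 higher and 8 lower, beside 43.8% and 14.8% of all genes. Without mitochondrial genes it was 7 higher and 17 lower, beside 30.6% and 22.4%. SYNPO (synaptopodin), a relative of SYNPO2, fell the most firmly (-1.72 ± 0.087, adjusted p = 5.4e-10), to 1.74 TPM in frankincense cells, against 4.88 TPM in vehicle cells. TAGLN2, the transgelin of nonmuscle cells, averaged 319 TPM in frankincense cells and 628 TPM in vehicle cells (-1.22 ± 0.066, adjusted p = 1.1e-09). ACTN4, a filament crosslinker, averaged 157 TPM in frankincense cells and 189 TPM in vehicle cells (-0.49 ± 0.053). In the other direction, FHL2, a LIM protein that binds SRF and its partners, rose 2.41-fold on the counts (log2 fold change 1.27 ± 0.067, adjusted p = 1.2e-09, edgeR). Its level averaged 179 ± 8.82 TPM in frankincense cells and 62.3 ± 2.98 TPM in vehicle cells. FERMT2 (kindlin-2), an integrin activator, and CSRP1, a LIM protein of smooth muscle, rose by 0.50 ± 0.050 and 0.33 ± 0.052 on the log2 scale.

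Of 26 genes of nonmuscle myosin II and its regulators, 24 were tested. On the counts 4 were higher and 11 lower, beside 31.9% of all genes tested higher and 31.0% lower. On log2(TPM + 1) the split was 11 higher and 5 lower, beside 43.8% and 14.8% of all genes. Without mitochondrial genes it was 4 higher and 7 lower, beside 30.6% and 22.4%. MYL6, the essential light chain of nonmuscle and smooth muscle myosin, had 688, 691 and 714 TPM in frankincense libraries and 1617, 1573 and 1545 TPM in vehicle libraries. It was 2.58-fold lower on the counts (log2 fold change -1.37 ± 0.058, adjusted p = 8.8e-11, edgeR), a larger fall than that of MYL9. MYH10, a nonmuscle myosin heavy chain, and CIT, a kinase that phosphorylates the regulatory light chain in dividing cells, fell by 0.60 ± 0.063 and 0.56 ± 0.050. The largest rise was in RND3, which inhibits the kinase ROCK1 and loosens stress fibres. It had 556, 542 and 562 TPM in frankincense libraries and 74.0, 73.0 and 74.5 TPM in vehicle libraries, 6.53-fold higher on the counts (2.71 ± 0.061, adjusted p = 2.6e-13). ARHGEF2 (GEF-H1), a microtubule-bound exchange factor, averaged 134 TPM in frankincense cells and 76.4 TPM in vehicle cells (0.58 ± 0.056), and CDC42EP3, an effector of CDC42, rose by 0.56 ± 0.056.

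Actin assembly and turnover was represented by 62 genes, of which 61 were tested. On the counts 7 were higher and 35 lower, beside 31.9% of all genes tested higher and 31.0% lower. The median log2 fold change was -0.18. On log2(TPM + 1) the split was 17 higher and 10 lower, beside 43.8% and 14.8% of all genes. Without mitochondrial genes it was 8 higher and 24 lower, beside 30.6% and 22.4%. The number of lower genes thus rested on the scaling, as it did over all genes. The filament nucleators SPIRE1 and FMNL2 rose, at 25.3 and 42.0 TPM in frankincense cells, against 9.33 and 19.9 TPM in vehicle cells (log2 fold changes 1.20 ± 0.054 and 0.88 ± 0.050). MICAL2, an enzyme that oxidises actin and takes filaments apart, averaged 22.5 TPM in frankincense cells and 9.32 TPM in vehicle cells (1.10 ± 0.071). FSCN1 (fascin), which bundles filaments in filopodia, averaged 58.8 TPM in frankincense cells and 81.6 TPM in vehicle cells (-0.69 ± 0.051). GSN (gelsolin), which severs filaments, and INF2, a formin, fell by 0.62 ± 0.049 and 0.57 ± 0.048.

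**Figure D4:**
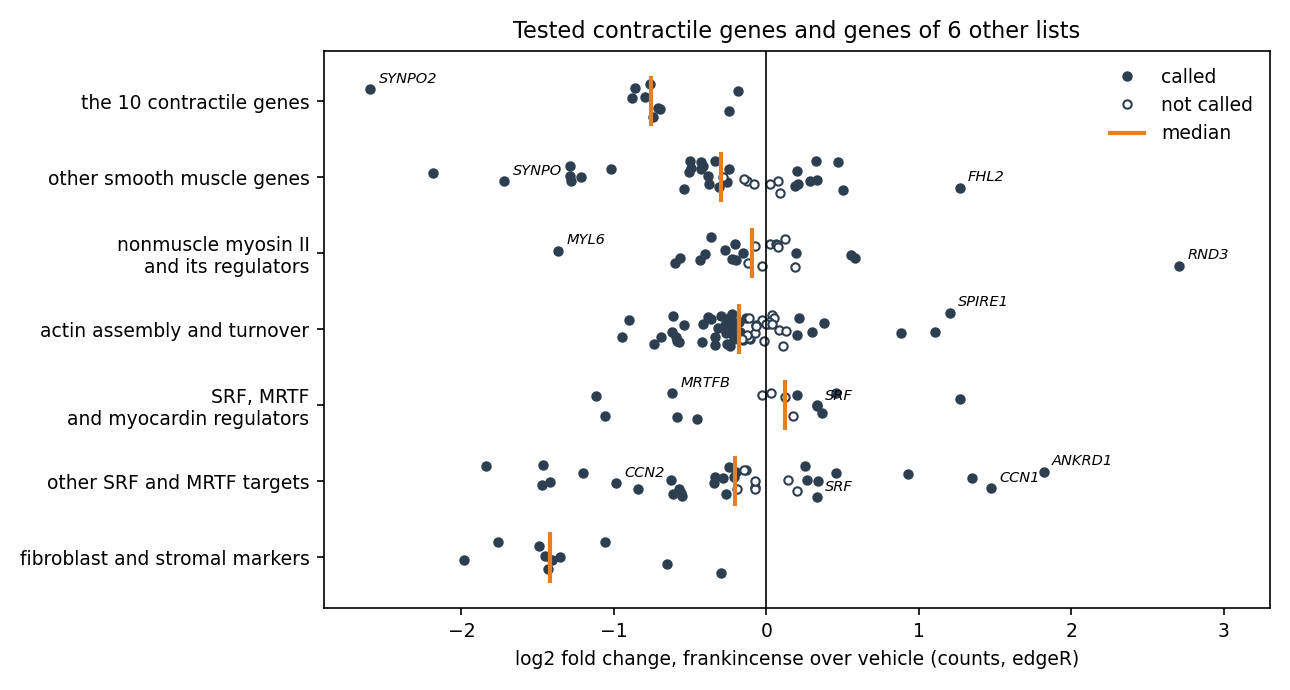
Log2 fold change (frankincense over vehicle, count scale) of the 10 contractile genes and of the tested genes of 5 actin, myosin and SRF lists and the fibroblast markers (points, filled where called), with the median of each list (bar). The 10 genes lie between -2.60 and -0.18, while each of the 5 lists reaches both sides of 0, with RND3 the highest point at 2.71.

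Of 17 regulators of SRF listed, 15 were tested, of which 6 were higher and 5 lower, beside 31.9% of all genes tested higher and 31.0% lower. On log2(TPM + 1) 10 were higher and 3 lower, beside 43.8% of all genes tested higher and 14.8% lower on that scale. Without mitochondrial genes the split was 7 higher and 5 lower, beside 30.6% and 22.4%. The summed level of these regulators was 528 to 548 TPM in frankincense cells and 345 to 366 TPM in vehicle cells. Most of it came from FHL2 and CSRP1, which with SRF were the 3 higher genes of smallest adjusted p. SRF itself had 13.74, 14.65 and 14.01 TPM in frankincense libraries and 9.51, 9.65 and 9.37 TPM in vehicle libraries. It was higher in every frankincense library (log2 fold change 0.33 ± 0.064, adjusted p = 0.00043, edgeR). MRTFA had 14.9, 14.3 and 13.7 TPM in frankincense libraries and 15.7, 15.4 and 16.0 TPM in vehicle libraries (-0.46 ± 0.058, adjusted p = 7.8e-06). MRTFB had 7.04, 7.70 and 9.26 TPM in frankincense libraries and 9.55, 9.94 and 9.73 TPM in vehicle libraries (-0.62 ± 0.069, adjusted p = 2.1e-06). In TPM, both coactivators were lower in all 3 frankincense libraries than in any vehicle library, but on log2(TPM + 1) neither was called in limma. GATA6, a factor of smooth muscle differentiation, ELK3, a partner of SRF, and FOXO4, which binds myocardin, fell by 1.06 ± 0.063, 0.58 ± 0.059 and 1.12 ± 0.12 on the log2 scale.

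Among 38 other genes known as targets of SRF or its coactivators, some of which stand in the lists above too, 36 were tested. On the counts 9 were higher and 20 lower, beside 31.9% of all genes tested higher and 31.0% lower. On log2(TPM + 1) 11 were higher and 11 lower, beside 43.8% and 14.8% of all genes. Without mitochondrial genes the split was 8 higher and 13 lower, beside 30.6% and 22.4%. CCN1 and CCN2 encode related matricellular proteins. CCN1 averaged 1011 ± 65.1 TPM in frankincense cells and 322 ± 14.2 TPM in vehicle cells (log2 fold change 1.47 ± 0.062, adjusted p = 8.1e-11, edgeR). CCN2 averaged 35.2 TPM in frankincense cells and 58.7 TPM in vehicle cells (-0.98 ± 0.057, adjusted p = 2.3e-09), so these relatives moved in opposite directions. ANKRD1, a muscle ankyrin-repeat protein, and TUFT1 rose by 1.82 ± 0.18 and 1.35 ± 0.067. VCL (vinculin), which ties filaments to focal adhesions, averaged 27.4 TPM in frankincense cells and 41.4 TPM in vehicle cells (-0.85 ± 0.065, adjusted p = 4e-08), and FILIP1L fell by 1.42 ± 0.089.

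The windows of 250 bases before annotated start sites were searched on both strands for the CArG box (RefSeq, GRCh38.p14). A box here was CC, then 6 bases that are each A or T, then GG, with no mismatch allowed. Boxes that depart from this pattern, and boxes outside the window, were not sought, so a gene without a match may still hold one. Such windows were at hand for 7 of the 10 genes, all but ACTB, TAGLN and MYL9. Over all 35116 windows, 407 (1.16%) held a box, and among the 7 genes with a window ACTG1 alone had it, beginning at position -94 from its start. GGAATG, the core that TEAD factors recognise, was in 11.9% of all windows. It was in 1 of 2 windows of ACTA2, 1 of 3 of SYNPO2 and the 1 window of LMOD1. GGGCGG, the core of the GC box, was in 42.6% of all windows and in at least 1 window of 6 of the 7 genes. TATAAA was in 10.7% of all windows and in 0 of the 7 genes. A gene with several windows has more chances of a match, so these counts of genes and shares of windows are unlike measures. A match describes letters only.

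Stretches of 130 bases that end just before the start site are shown for ACTG1 and for genes of the lists above that hold a box and moved firmly in one direction or the other, since a box of this kind stands before genes that fell and genes that rose. Capitals mark the CArG boxes. The genes that fell are ACTG1 (chr17:81512800-81512929, minus strand), ACTC1 (chr15:34795550-34795679, minus strand) and EGR1, an immediate early factor (chr5:138465349-138465478, plus strand, log2 fold change -1.20).
ACTG1: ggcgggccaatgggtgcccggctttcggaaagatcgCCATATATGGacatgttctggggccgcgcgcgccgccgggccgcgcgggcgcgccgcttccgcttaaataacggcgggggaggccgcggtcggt
ACTC1: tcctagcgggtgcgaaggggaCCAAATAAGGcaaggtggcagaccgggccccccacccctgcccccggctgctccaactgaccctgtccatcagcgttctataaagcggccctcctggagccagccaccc
EGR1: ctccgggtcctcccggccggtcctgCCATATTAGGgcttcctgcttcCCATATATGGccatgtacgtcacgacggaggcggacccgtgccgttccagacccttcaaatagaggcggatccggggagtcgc
The genes that rose are RND3 (chr2:150487696-150487825, minus strand), FHL2 at 2 of its start sites (chr2:105438514-105438643 and chr2:105399052-105399181, both minus strand) and SRF (chr6:43171139-43171268, plus strand).
RND3: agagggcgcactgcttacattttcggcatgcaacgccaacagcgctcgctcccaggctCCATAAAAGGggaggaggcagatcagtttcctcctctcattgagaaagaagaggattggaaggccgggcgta
FHL2, upstream start: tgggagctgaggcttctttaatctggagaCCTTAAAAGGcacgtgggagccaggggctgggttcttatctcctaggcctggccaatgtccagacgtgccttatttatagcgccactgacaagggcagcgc
FHL2, downstream start: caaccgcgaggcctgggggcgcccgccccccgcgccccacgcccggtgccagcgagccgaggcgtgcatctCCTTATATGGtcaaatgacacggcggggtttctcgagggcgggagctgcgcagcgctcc
SRF: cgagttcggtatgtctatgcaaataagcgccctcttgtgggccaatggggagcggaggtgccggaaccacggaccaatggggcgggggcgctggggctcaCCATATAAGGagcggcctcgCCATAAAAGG
Of the 196 genes in the actin, myosin and SRF lists, the 10 included, 170 had a window and 21 held a box. Of these 21, 7 were higher, 8 were lower, 3 were not called and 3 were not tested. Besides those printed, TES, ACTN1, LPP and FLNA were higher, and FILIP1L, FHL1, CNN2, SMTN and ROCK2 were lower. Of all genes tested, 166 held a box, of which 31.9% were higher and 39.8% lower, beside 35.2% higher and 31.6% lower among the 11521 tested genes with a window. Genes with a box were called in both directions in these cells.

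**Figure D5:**
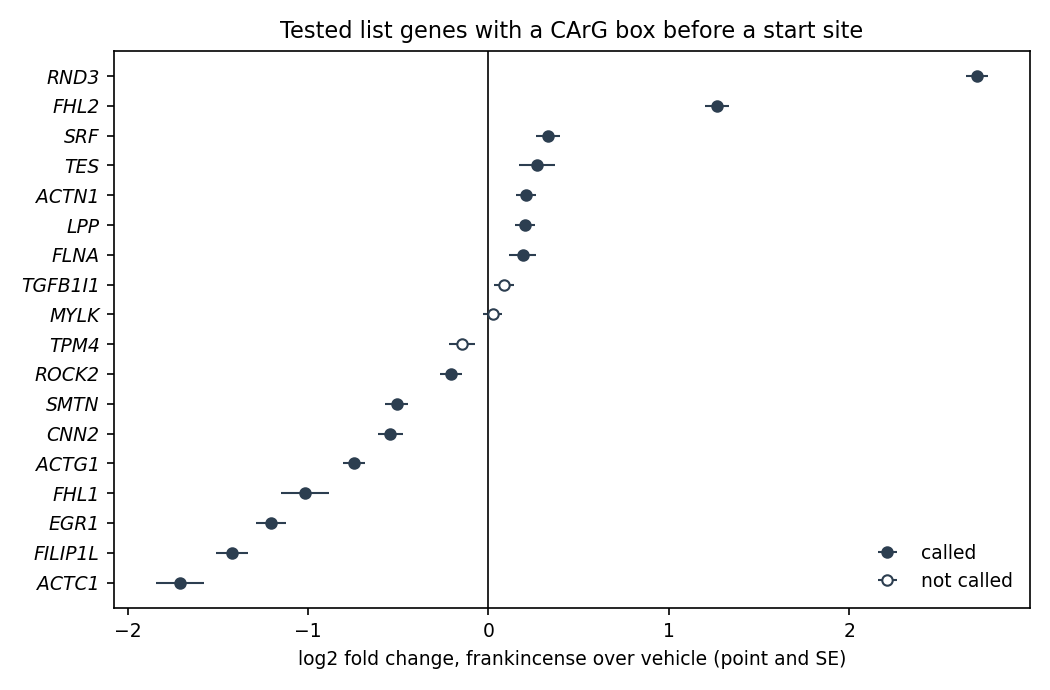
Log2 fold change (frankincense over vehicle, count scale, error bars of 1 SE) of the 18 tested list genes with a CArG box within 250 bases before a start site, ordered by value. RND3, at 2.71, lies at one end and ACTC1, at -1.71, at the other, with ACTG1 at -0.74 among the genes that were lower.

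Markers of other cell types moved alongside, beside 31.0% of all genes tested called lower and 31.9% higher on the counts. All 10 fibroblast and stromal markers were called lower, with a median log2 fold change of -1.42, and their summed level was 3249 to 3499 TPM in frankincense cells and 5020 to 5171 TPM in vehicle cells. LUM, DCN and THY1 fell by 1.98 ± 0.062, 1.76 ± 0.066 and 1.45 ± 0.055. Of 9 epithelial markers 7 were tested, of which 2 were higher (KRT7 and EPCAM, 0.94 and 0.72, EPCAM not called in DESeq2) and 5 lower, among them MUC1, KRT19 and KRT8 (-1.39, -0.58 and -0.42), and their sum was 1381 to 1434 TPM in frankincense cells and 1607 to 1642 TPM in vehicle cells. CDH1, which defines epithelium, had 0, 3 and 0 counts in frankincense libraries and 5, 6 and 3 in vehicle libraries. Of 7 pericyte markers 5 were tested, with RGS5 higher (0.94) and NOTCH3, PDGFRB and MCAM lower (-1.88, -1.04 and -0.49, MCAM not called on log2(TPM + 1)), and a sum of 36.1 to 44.9 TPM in frankincense cells and 53.1 to 59.2 TPM in vehicle cells. The 8 smooth muscle markers summed to 15.6 to 20.7 TPM in frankincense cells and 21.2 to 24.8 TPM in vehicle cells. The 10 markers of striated muscle summed to 4.58 to 5.23 TPM in frankincense cells and 5.10 to 6.29 TPM in vehicle cells, and TNNI3 was lower (-0.92), a call lost in DESeq2 (adjusted p = 0.156) and without frankincense replicate 2 or 3 or vehicle replicate 1 or 2 (0.0948 to 0.129, edgeR). The 6 immune markers summed to 35.1 to 64.0 TPM in frankincense cells and 30.3 to 34.1 TPM in vehicle cells, and nearly all of it was CD68, which had 34.45, 40.66 and 63.60 TPM in frankincense libraries and 28.57, 28.15 and 30.78 TPM in vehicle libraries. CD68 was not called on the counts (0.26 ± 0.12, adjusted p = 0.079, edgeR) but was called higher in 7 of 18 alternatives, DESeq2 and log2(TPM + 1) among them. Of the other immune markers only CD14, which was lower (-2.96), and PTPRC, which was not called, were tested. The 6 endothelial markers summed to at most 0.48 TPM in any library. KRT7, EPCAM, RGS5, TNNI3 and CD14 were too low to pass a filter of 5 CPM in 3 libraries. The part of these markers in the falls of the contractile genes was not tested.

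For each of the 10 genes the gene whose log2 CPM followed it most closely over the 6 libraries was sought among 11836 genes of at least 5 CPM. ACTB was closest to PPIA (cyclophilin A), at a Pearson r of 0.9998, ACTG1 to THRA, a thyroid hormone receptor, at 0.9999, and ACTA2 to MYL12A, another regulatory myosin light chain, at 0.996. The others were TAGLN with ZNF362, MYL9 with SAMD1, TPM2 with SELENOW, CNN1 with LINC00294, LMOD1 with BAIAP2-DT and SYNPO2 with RAB31, and TPM1 with an ID that has no symbol. The 6 points fall into 2 groups that share treatment, and 2010 genes followed ACTB at an r above 0.95, so these values describe the libraries only.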

How the data were processed

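RNA of 12Z cells was sequenced in 3 frankincense and 3 vehicle libraries made with a TruSeq RNA kit per the labels' protocols. The authors deposited 1 RSEM gene table per library with expected counts, TPM and abundance-weighted transcript lengths, per the file headers. Per the submitters' processing notes, STAR and RSEM 1.3.1 with GRCh38 were used, while for the STAR version, annotation and filters the sources used here say nothing. Counts that RSEM divides between similar genes are estimates. Gene symbols came from a table of names (60419 of 60616 IDs) and GENCODE 29 (178 more).

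The deposited expected counts, rounded to integers, entered a fit of group alone in edgeR 4.0.16 under R 4.3.3 (low counts dropped by filterByExpr, TMM scaling, robust quasi-likelihood test, two-sided, Benjamini-Hochberg adjustment over 16719 genes, called at an adjusted p under 0.05). The common biological coefficient of variation was 6.42%. The deposited TPM were tested as log2(TPM + 1) with limma 3.58.1, which understates changes of low genes. Shares and lengths were compared by exact permutation. The 18 alternatives included DESeq2 1.42.0, limma-voom, RLE factors, upper-quartile factors and library size alone. They also included a fit without mitochondrial genes, no filter and a filter of 5 CPM in 3 libraries. The rest were a pseudocount of 0.1, TPM without mitochondrial genes, a replicate block and leaving out each library. The scripts were tested on simulated data in which few genes changed, as many up as down. Scaling and error rates under changes as widespread as in this series were not covered by that test.

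The 10 genes, the lists and the tests were chosen with earlier results of these data known. Named from each list were the 3 called genes with the smallest adjusted p in each direction, with SRF, MRTFA, MRTFB, MYOCD, ACTG2, MYH11 and DES whatever their result; among the genes with a CArG box, those printed as sequence, and among the immune markers CD68 and PTPRC, were chosen after their values were seen. Replicate numbers were not shown to pair libraries. No explanation was tested.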

Additional observations from a re-analysis of the deposited data

How the results depend on the processing

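Over 18 alternatives, 7 to 10 of the 10 genes were called lower and 0 were called higher. Log2(TPM + 1) and log2(TPM + 0.1) called 7, scaling by library size 8, and a filter of 5 CPM 8 (CNN1 and SYNPO2 were then not tested). DESeq2, no filter and TPM without mitochondrial genes called 9 each. Among all genes, scaling by library size called 4367 lower and the filter of 5 CPM 4275. DESeq2 called 4469 of all genes lower, no filter 5377 and TPM without mitochondrial genes 3739. The sign turned in ACTA2 (0.0056 and 0.0057) and TPM1 (0.052 and 0.052) on log2(TPM + 1) and log2(TPM + 0.1). Over the whole table these 2 scales called 2474 and 2477 genes lower, against 5177 on the counts; the cause was not tested. CNN1 lost its call under scaling by library size (adjusted p = 0.0648), without a filter (0.105) and in DESeq2 (0.229). Leaving out each library in turn gave 8 to 10 of the 10 genes lower, and 4637 to 5341 genes lower and 4740 to 5690 higher among all tested. Taken as shares of expected counts rather than of TPM, the differences were 0.201 percentage points for ACTA2, 1.36 for TPM1, 0.745 for TPM3 and -5.80 for TPM2, each in the direction given for TPM.

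The replicate numbers did not pair the libraries by their deviations (correlations of 0.050, 0.10 and 0.035 for numbers 1 to 3). With the replicate block 9 of the 10 genes were called lower, without CNN1 (adjusted p = 0.072), and of all genes tested 5347 were called higher and 5244 lower. Depth limits CNN1, SYNPO2, LMOD1, the smooth muscle markers and the low markers KRT7, EPCAM, RGS5, TNNI3 and CD14. Counting intervals would cover counting error only.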
